A study of Mus musculus with 54 samples.

Results

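The 8 genes described here handle cholesterol in macrophages: the oxysterol receptor Nr1h3, the receptor's targets Abca1, Abcg1, Mylip and Srebf1, the sterol-sensing factor Srebf2, and the sterol synthesis enzymes Hmgcs1 and Sqle. They were taken by symbol, as 8 of the 33280 gene symbols counted in bulk RNA-seq libraries from mouse brain. The choice was made with earlier results of these data known. The sorted cells were microglia (MG), the macrophages of the parenchyma, and sdCAMs, border macrophages that lie beneath the dura. All 8 had enough counts to be tested in each of the 25 comparisons.

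Cells hold free cholesterol steady through opposing programmes. When sterols are scarce, the SREBP factors leave the endoplasmic reticulum and switch on the synthesis enzymes. When oxysterols build up, the liver X receptors, LXRα (encoded by Nr1h3) and LXRβ (Nr1h2), bind DNA with a retinoid X receptor and switch on cholesterol export through ABCA1 and ABCG1, the SREBP-1c factor, and MYLIP, a ubiquitin ligase that limits sterol uptake.

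The series held 54 libraries from 24 mice, in 18 groups of 3 mice, all sorted from brain tissue without choroid plexuses 12 h after an injection of lipopolysaccharide (LPS) or PBS. Wild type (WT) mice and Ccr2 KO mice (Ccr2-/-), which carry a germline loss of a monocyte chemokine receptor, each gave an untreated group injected with PBS, a group given vehicle (CTL) and then LPS, and a group given BLZ945 and then LPS. BLZ945 is a CSF1 receptor inhibitor that empties the macrophage niches, and 8 weeks passed between the end of treatment and the injection, so that BLZ groups hold repopulated cells. Reporter mice, labelled Ccr2CreERT2/CreERT2:R26tdT/tdT, all received BLZ945 and tamoxifen, then PBS or LPS. In these mice the recombinase runs from the Ccr2 locus, and sdCAMs were sorted into tdT+ cells, from cells that had expressed Ccr2 around the time of tamoxifen, and tdT- cells. MG and sdCAMs came from the same mouse. Untreated mice had no vehicle, so vehicle and LPS cannot be told apart in the WT and Ccr2-/- comparisons, and no group of these mice was given BLZ945 and PBS.

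Total counts ran from 7497764 to 11330781 in MG, from 7887891 to 10727796 in Ccr2-/- sdCAMs, from 1705930 to 7699790 in WT sdCAMs and from 2060240 to 9850283 in reporter sdCAMs. Ccr2 itself stood at 42.96, 16.8 and 34.2 CPM (counts scaled to library size) in untreated WT sdCAMs and at 3.02, 2.46 and 5.59 CPM in untreated Ccr2-/- sdCAMs. The summed level of 6 sdCAM markers was at most 30.7 CPM in every MG library and at least 1157 CPM in every sdCAM library. Microglial markers were not absent from sdCAM libraries, where 5 of them summed to 2999, 4810 and 10130 CPM in the untreated WT mice 9, 14 and 15. The library labelled tdT+ of mouse 5 after LPS held 10180 CPM of microglial and only 1157 CPM of sdCAM markers, the lowest of the sdCAM libraries. The libraries labelled tdT- of mouse 1 and tdT+ of mouse 7 after LPS carried sex-linked transcripts unlike the other libraries of those mice and their labels carry each other's index number, so the reporter results of the 8 genes after LPS are also given with both columns exchanged and with both left out. In 6 of the WT sdCAM libraries (all CTL with LPS, mice 9 and 14 untreated, mouse 12 given BLZ945) the labels note an immediate early gene (IEG) correction, and no Ccr2-/- library carries that note. In the Ccr2-/- libraries after LPS the title and the cell type label contradict each other. Groups follow the label, and the marker sums above go with it. The p-values measure the spread between mice. In bulk libraries, fewer cells of a type and less RNA per cell cannot be told apart.

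Levels are given as CPM scaled by the trimmed mean of M-values (TMM). Differences are log2 fold changes with standard errors (SE) from edgeR's quasi-likelihood test, with Benjamini-Hochberg adjustment over all genes tested, and a gene passed at an adjusted p under 0.05. Compared between genes per kilobase of exon, Mylip was the most abundant of the 8 genes in MG at rest (101 ± 11.9 CPM per kb in WT, SD, n = 3) and Abca1 in WT sdCAMs at rest (59.3 ± 14.2 CPM per kb). Nr1h3 was the least abundant in resting sdCAMs of both genotypes (0.317 ± 0.549 in WT, 1.12 ± 0.729 CPM per kb in Ccr2-/-). In resting MG Sqle was the lowest, at 0.368 ± 0.089 CPM per kb in WT and 0.485 ± 0.199 in Ccr2-/-, beside Nr1h3 at 0.472 ± 0.374 and 0.715 ± 0.389.

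**Figure D1:**
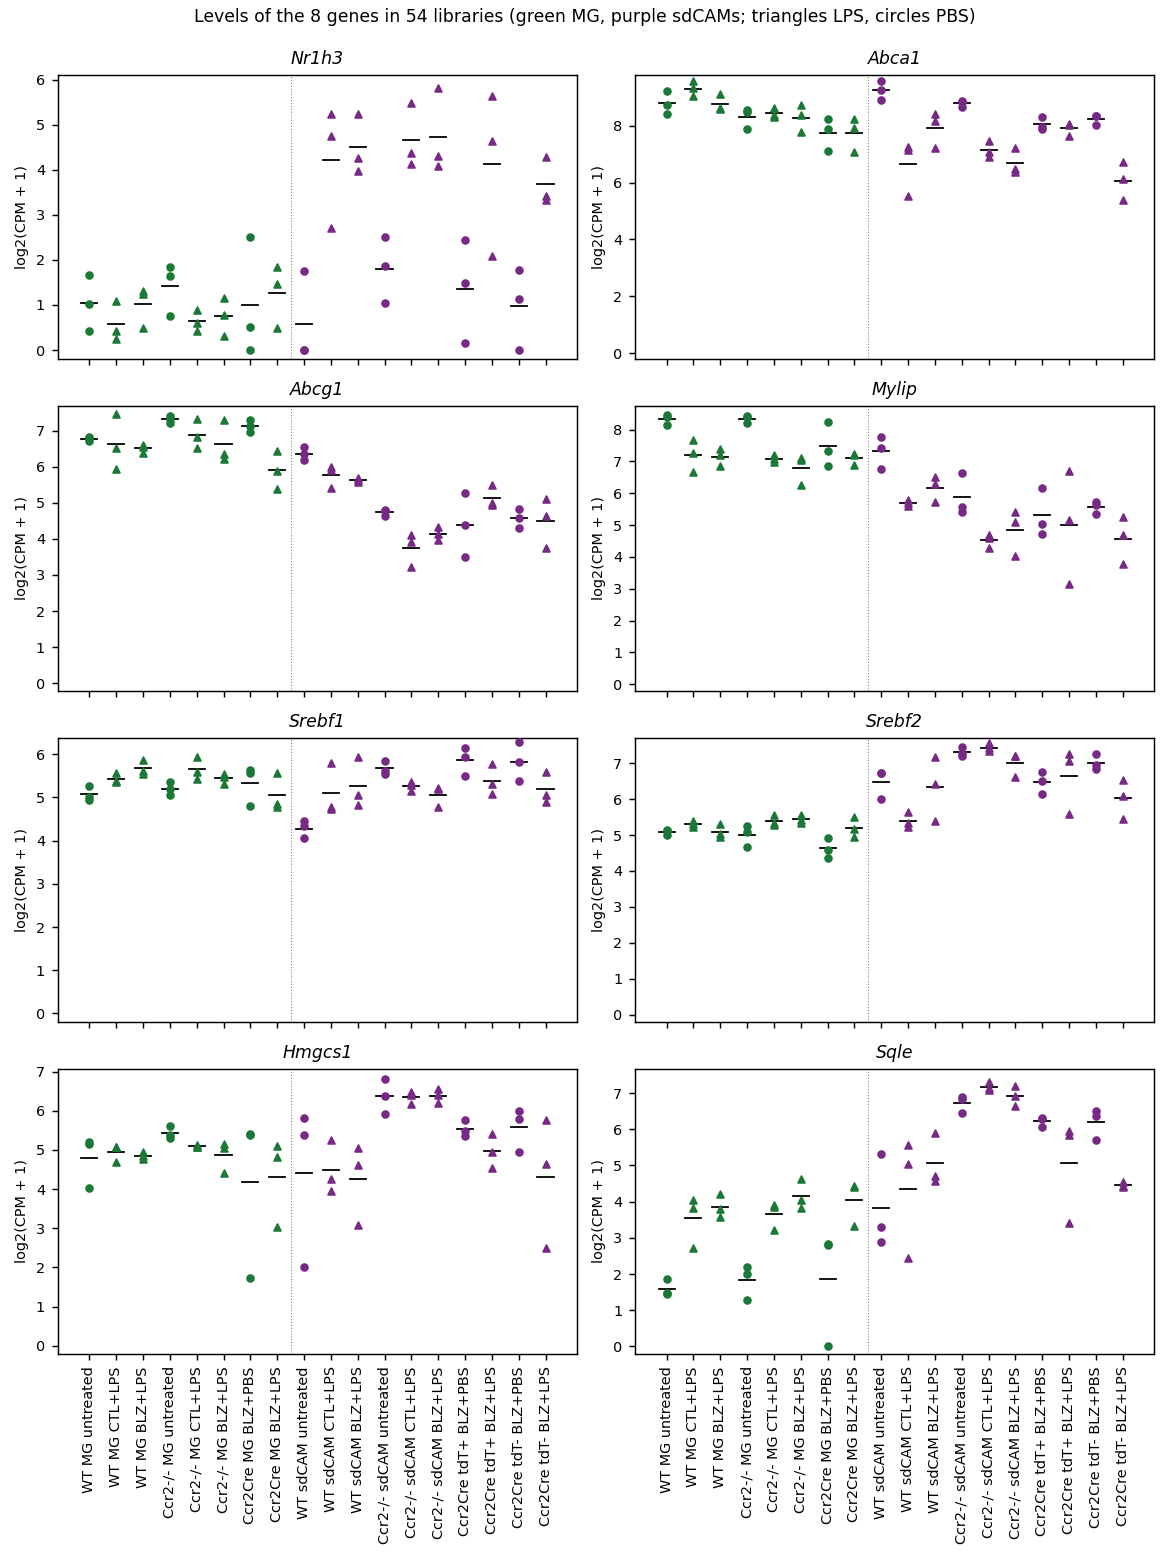
Level of each gene in each library as log2(CPM + 1), in 18 groups of 3 mice along the horizontal axis, MG in green to the left of the dotted line and sdCAMs in purple to the right, triangles for LPS and circles for PBS, with black bars for group means of the plotted values. Nr1h3 is low except in sdCAMs after LPS, Srebf2 and Sqle sit higher in most sdCAM groups than in MG, Abcg1 and Mylip sit lower, and Abca1 dips in sdCAMs after LPS apart from the libraries labelled tdT+.

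Each gene's 18 group means were ordered and neighbouring groups compared by their ranges over 3 mice. For Mylip and Srebf2 all 17 pairs of neighbours overlapped, for Nr1h3, Abca1, Srebf1 and Sqle 16 of 17 did, and for Abcg1 and Hmgcs1 15 of 17. By neighbouring ranges the order for Nr1h3 broke once, between the 6 sdCAM groups after LPS (means of 12.4 to 30.1 CPM) and the other 12 groups (0.543 to 2.81 CPM). Single libraries crossed that break, as tdT+ mouse 5 after LPS had 3.24 CPM and untreated Ccr2-/- sdCAMs of mouse 3 had 4.72 CPM. For Sqle the 5 highest means, 73.8 to 143 CPM, were those of Ccr2-/- sdCAMs in every treatment and of reporter sdCAMs after PBS. The break between neighbours lay below them. Single libraries crossed it too, as tdT- mouse 175 after PBS had 51.1 CPM and tdT+ mouse 7 after LPS had 60.6 CPM. For Abca1 the 4 lowest means, 70.8 to 142 CPM, were all sdCAM groups after LPS.

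The promoters of 3 genes that moved in different directions are shown, since Srebf2 and Hmgcs1 stood higher and Mylip lower in untreated Ccr2-/- sdCAMs than in MG. RefSeq windows on GRCm38.p6 were at hand for 6 of the 8 genes, 9 windows in all, and the 250 bases before the start site are printed 5′ to 3′ along the gene. Capitals mark TCACNCCAC, a form of the sterol regulatory element, and CCAAT, which NF-Y binds, on either strand (ATTGG is CCAAT on the other strand). The printed stretches are chr13:119690101-119690350 for Hmgcs1, chr15:82147019-82147268 for Srebf2 and chr13:45389492-45389741 for Mylip, all on the plus strand.
Hmgcs1: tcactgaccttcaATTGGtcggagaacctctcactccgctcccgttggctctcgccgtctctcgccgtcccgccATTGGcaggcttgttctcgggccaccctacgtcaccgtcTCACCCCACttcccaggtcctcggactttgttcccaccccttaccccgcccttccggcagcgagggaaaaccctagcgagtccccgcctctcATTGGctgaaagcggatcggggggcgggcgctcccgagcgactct
Srebf2: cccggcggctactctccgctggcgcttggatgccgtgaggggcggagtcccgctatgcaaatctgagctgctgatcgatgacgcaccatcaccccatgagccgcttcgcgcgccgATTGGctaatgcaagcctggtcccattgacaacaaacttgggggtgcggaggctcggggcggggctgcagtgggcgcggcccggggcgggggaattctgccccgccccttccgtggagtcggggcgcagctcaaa
Mylip: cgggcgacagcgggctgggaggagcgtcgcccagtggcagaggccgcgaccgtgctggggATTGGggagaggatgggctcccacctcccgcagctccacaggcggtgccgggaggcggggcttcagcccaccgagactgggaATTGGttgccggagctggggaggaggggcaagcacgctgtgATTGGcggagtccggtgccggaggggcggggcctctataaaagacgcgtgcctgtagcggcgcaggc

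The windows searched hold 300 bases and run past the start site, so they are longer than the printed stretches. TCACNCCAC was found in 1 of the 9 windows, that of Hmgcs1 at bases -137 to -129 from the start site. It was in 1.24% of all 32851 windows of the same length. CCAAT was found in 5 of the 9 windows, in 14 of the 18 windows of the sterol synthesis enzymes (77.8%) and in 37.4% of all windows. An exact pair of AGGTCA or GGGTCA copies in one orientation with 4 bases between was in none of the 9 windows and in 0.0426% of all. That is the spacing that LXR with its partner is known for. Pairs that differ from these letters at any base were not searched for. With exact pairs in only 14 of 32851 windows, the count cannot show that the 9 windows lack such a site. These matches describe the windows searched and say nothing of what binds there.

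Sqle, squalene epoxidase, which makes the first oxygenated sterol precursor, had the largest difference of the 8 genes between the untreated cell types. In untreated Ccr2-/- mice it stood at 86.1, 114 and 117 CPM in sdCAMs and at 3.04, 3.58 and 1.45 CPM in MG, far apart in all 3 mice. The difference was 5.27 ± 0.33 on the log2 scale (SE, n = 3 mice; adjusted p = 5.51e-10, edgeR). In untreated WT mice sdCAMs had 8.76, 6.37 and 38.9 CPM and MG 2.61, 1.77 and 1.74 CPM, with no overlap, and the difference of 3.16 ± 0.79 passed (adjusted p = 0.0113). Between the untreated cell types, groups did not overlap for 5504 of all 12890 genes tested in Ccr2-/- mice and 5346 of 13136 in WT mice. Mouse 15 had the highest WT sdCAM value, also had the most microglial markers, and without its sdCAM library the WT difference was 1.99 with an adjusted p of 0.0627. The call was lost in 3 of the 6 fits that left out 1 library, the other 2 being those without the MG of mouse 14 or of mouse 15.

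Srebf2, whose protein drives the synthesis enzymes, was also higher in sdCAMs. Untreated Ccr2-/- sdCAMs had 174, 155 and 145 CPM against 24.5, 33.1 and 37.1 CPM in MG, a difference of 2.32 ± 0.19 (adjusted p = 2.71e-08). Untreated WT sdCAMs had 105, 106 and 62.7 CPM against 33.4, 31.3 and 34.2 CPM in MG, a difference of 1.55 ± 0.37 (adjusted p = 0.00866). Neither pair of groups overlapped, and only leaving out the MG of WT mouse 14 took the WT call away (adjusted p = 0.0515).

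Hmgcs1, the HMG-CoA synthase that feeds the mevalonate pathway, was higher in untreated Ccr2-/- sdCAMs (59.5, 111 and 82.0 CPM) than in MG (40.97, 48.2 and 38.4 CPM), by 0.98 ± 0.23 (adjusted p = 0.00344). In untreated WT mice its sdCAM values were 3.05, 40.6 and 54.9 CPM and its MG values 15.2, 36.1 and 34.3 CPM. Those groups overlapped, mouse 9 was low in both cell types, and the difference of 0.25 ± 0.67 did not pass.

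The other enzymes of the pathway went the same way as these in Ccr2-/- mice. Of 20 sterol synthesis enzymes, all tested, 14 were higher in untreated Ccr2-/- sdCAMs than in MG and 0 lower, where 22.4% of all genes passed in either direction, with a median difference of 1.72 on the log2 scale against 0 over all genes. The 4 with the smallest p were Sqle, Msmo1 (1.99 ± 0.17), Cyp51 (2.09 ± 0.24) and Fdft1 (1.97 ± 0.27), which act at and around the squalene and lanosterol steps. In untreated WT mice 2 of 20 were higher, Sqle among them, and 0 lower, a smaller share than the 17.4% of all genes that passed, with a median of 0.25 against 0.03 over all genes.

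Genes of SREBP control and sterol uptake differed too. Insig1, a sterol-dependent anchor of the SREBP complex, was higher by 2.85 ± 0.27 in Ccr2-/- and 1.74 ± 0.50 in WT, and the sterol carrier gene Stard4 by 3.59 ± 0.65 and 3.33 ± 0.78. Of the 10 genes tested in that list, 5 were higher and 2 lower in Ccr2-/- mice, and 3 were higher and 0 lower in WT mice.

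**Figure D2:**
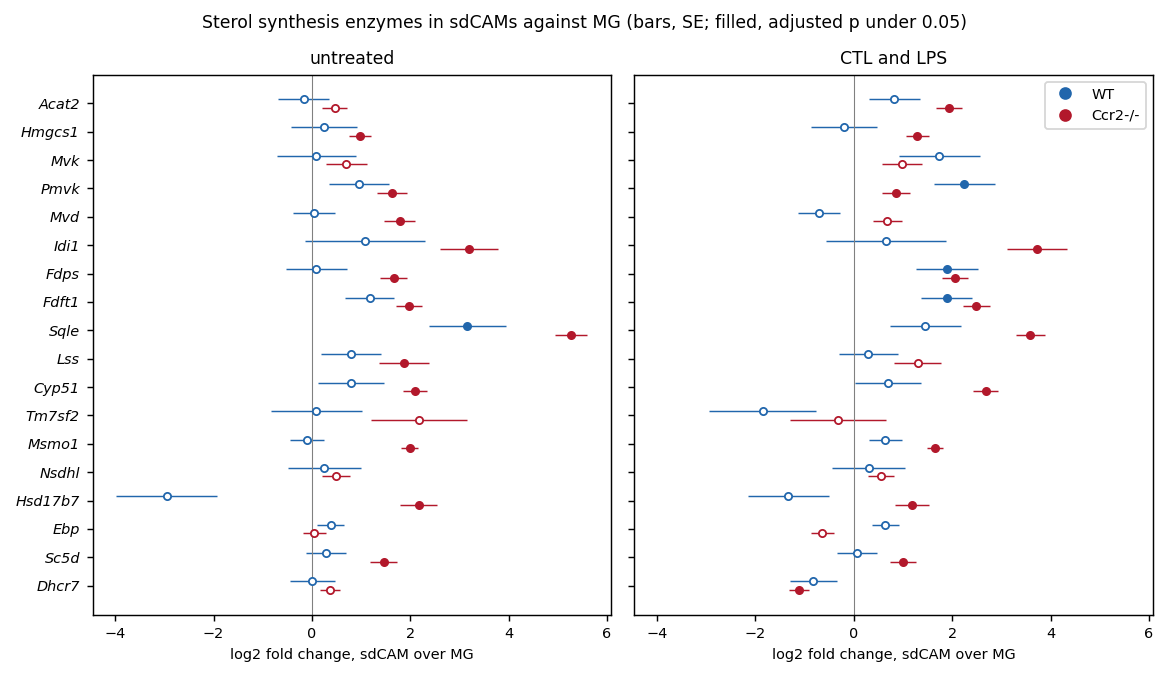
Fitted log2 fold change of sdCAMs over MG (points, SE as bars) for 18 sterol synthesis enzymes in pathway order, WT in blue and Ccr2-/- in red, untreated on the left and after vehicle and LPS on the right, filled where the adjusted p was under 0.05. The red points lie mostly right of 0, with 12 of 18 filled in untreated mice, and the blue points scatter around 0 with wider bars.

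Of the LXR targets, Abcg1 and Mylip were lower in untreated Ccr2-/- sdCAMs than in MG. Abcg1, which exports cholesterol to HDL, stood at 26.7, 24.0 and 26.5 CPM in untreated Ccr2-/- sdCAMs and at 169, 159 and 147 CPM in MG, a difference of -2.62 ± 0.29 (adjusted p = 1.24e-06). Mylip was lower in sdCAMs there too, at 46.9, 41.9 and 98.9 CPM against 295, 334 and 341 CPM, by -2.37 ± 0.33 (adjusted p = 2.53e-05). In untreated WT mice Mylip was at 108, 169 and 217 CPM in sdCAMs and 282, 339 and 355 CPM in MG (-0.92 ± 0.31, adjusted p = 0.049). None of these groups overlapped, but the WT call for Mylip was lost without the sdCAMs of mouse 9 or 14 or the MG of mouse 9, 14 or 15 (adjusted p up to 0.172), with the mouse as a replicate block, and in 6 more alternative fits. Abcg1 in untreated WT mice was at 91.7, 71.3 and 80.5 CPM in sdCAMs and 112, 109 and 103 CPM in MG (-0.34 ± 0.32, not passing). Microglial markers summed to 3273 to 4940 CPM in untreated Ccr2-/- sdCAMs and 2999 to 10130 CPM in untreated WT sdCAMs, and their part in the higher WT values of Abcg1 and Mylip was not tested.

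Abca1, Srebf1 and Nr1h3 did not pass between the untreated cell types in either genotype. Abca1, which loads cholesterol onto apolipoproteins, was at 450, 406 and 459 CPM in Ccr2-/- sdCAMs and 232, 373 and 358 CPM in MG (0.45 ± 0.25), and it differed by 0.51 ± 0.42 in WT mice. Srebf1 differed by 0.49 ± 0.19 in Ccr2-/- mice and by -0.74 ± 0.36 in WT mice. In all, 5 of the 8 genes passed in untreated Ccr2-/- mice, where 22.4% of all genes tested did, and 3 of 8 in untreated WT mice, where 17.4% did.

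Other genes of the LXR axis differed more widely still. Apoe, the apolipoprotein that takes up exported cholesterol, averaged 39920 CPM in untreated Ccr2-/- sdCAMs against 302.8 CPM in MG (7.04 ± 0.19), and 18840 against 129 CPM in WT (7.28 ± 0.72). Pltp, a phospholipid transfer protein, averaged 631 against 1.86 CPM in Ccr2-/- (8.43 ± 0.44) and 150 against 0.727 CPM in WT (7.69 ± 0.92). Lpcat3, which remodels membrane phospholipids, was lower in sdCAMs by -1.93 ± 0.17 and -1.89 ± 0.35. Of the 19 genes in the list, which includes Abca1, Abcg1, Mylip, Srebf1 and Nr1h3, 6 were higher and 5 lower in Ccr2-/- mice, and 3 higher and 2 lower in WT mice, so the list had no common direction.

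After vehicle and LPS, 7 of the 8 genes differed between Ccr2-/- sdCAMs and MG, where 27% of all genes did. Nr1h3 stood at 16.5, 19.7 and 43.6 CPM in sdCAMs and 0.85, 0.52 and 0.35 CPM in MG, a difference of 5.49 ± 0.76 (adjusted p = 1.93e-05). Abca1, which did not pass at rest, was lower in sdCAMs (174, 118 and 135 CPM) than in MG (317, 396 and 329 CPM), by -1.29 ± 0.25 (adjusted p = 0.000718). The values for Abcg1 (-3.23 ± 0.30), Mylip (-2.60 ± 0.34), Srebf2 (2.05 ± 0.19), Hmgcs1 (1.29 ± 0.23) and Sqle (3.59 ± 0.29) kept the sign they had at rest, and Srebf1 (-0.40 ± 0.19) did not pass. Of the 20 enzymes 13 were higher and 1, Dhcr7, was lower.

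After vehicle and LPS, 3 of the 8 genes differed in WT mice, where 36.7% of all genes did. Nr1h3 was at 25.7, 36.5 and 5.54 CPM in sdCAMs and 0.33, 0.18 and 1.11 CPM in MG (5.43 ± 1.19, adjusted p = 0.00227). Abca1 was at 149, 45.4 and 140 CPM in sdCAMs and 750, 637 and 521 CPM in MG (-2.34 ± 0.44, adjusted p = 0.00099), where the lowest value, that of mouse 4, rested on 41 counts. Mylip was at 50.4, 54.2 and 47.2 CPM against 101, 205 and 155 CPM (-1.44 ± 0.32, adjusted p = 0.00247). All 3 sdCAM libraries carry the IEG note and no MG library does, and with that note as a covariate none of the 8 genes passed (Abca1 -1.65, adjusted p = 0.061). Of the 20 enzymes 4 were higher and 0 lower.

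LPS raised Sqle in MG of both genotypes. WT MG had 2.61, 1.77 and 1.74 CPM untreated and 15.6, 5.57 and 13.3 CPM after vehicle and LPS, a rise of 2.53 ± 0.42 on the log2 scale (adjusted p = 0.000946). Ccr2-/- MG had 3.04, 3.58 and 1.45 CPM untreated and 8.37, 13.3 and 14.0 CPM after LPS, a rise of 2.16 ± 0.39 (adjusted p = 0.000661). The groups did not overlap in either genotype, as for 5209 of all 11789 genes tested in WT and 6166 of 11558 in Ccr2-/-. The calls held without any 1 library.

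Mylip fell in MG of both genotypes. It went from 282, 339 and 355 CPM to 101, 205 and 155 CPM in WT (-1.05 ± 0.23, adjusted p = 0.00505) and from 295, 334 and 341 CPM to 145, 125 and 135 CPM in Ccr2-/- (-1.23 ± 0.20, adjusted p = 0.000257). No value after LPS reached the lowest untreated one. Srebf1 rose in Ccr2-/- MG, from 32.0, 35.7 and 39.8 CPM to 47.3, 41.8 and 60.02 CPM (0.51 ± 0.18, adjusted p = 0.0451), a call lost in all fits but 1 of the 6 that left out a library (adjusted p up to 0.216), the exception being without mouse 2. In WT MG it went from 29.7, 31.4 and 37.3 to 46.3, 39.7 and 40.9 CPM (0.39 ± 0.17, adjusted p = 0.0903).

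Abca1, Abcg1, Srebf2, Hmgcs1 and Nr1h3 did not pass in MG, with differences between -1.58 ± 0.89 (Nr1h3, Ccr2-/-, at under 3 CPM throughout) and 0.53 ± 0.22 (Abca1, WT). In all, 2 of the 8 genes passed in WT MG and 3 of 8 in Ccr2-/- MG, where 30.9% and 34.9% of all genes did. In reporter MG, repopulated in both arms, 0 of 8 passed in edgeR (1, Abcg1, at an unadjusted p under 0.05, and 0 in DESeq2), where 1.08% of all genes did. Sqle there was at 6.06, 0 and 6.00 CPM after PBS and at 20.3, 9.05 and 20.4 CPM after LPS. These groups did not overlap, as for 2740 of all 10882 genes tested. The Sqle difference of 2.05 ± 1.47 carried the widest error of the 3 MG populations. Abcg1 was at 139, 156 and 123 CPM after PBS and at 86.0, 57.6 and 40.8 CPM after LPS (-1.21 ± 0.41, adjusted p = 0.225). Hmgcs1 and Sqle were both lowest after PBS in mouse 175 (2.30 and 0 CPM).

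Of the sterol synthesis enzymes tested in MG, 5 of 19 rose with LPS and 0 fell in each genotype, with medians of 0.24 in WT and 0.34 in Ccr2-/- against 0.02 and 0 over all genes. That is a smaller share than the 30.9% and 34.9% of all genes that passed there. The 4 with the smallest p were Mvd (1.61 ± 0.20), Sqle, Pmvk (1.47 ± 0.25) and Lss (1.21 ± 0.28) in WT, and Hsd17b7 (2.60 ± 0.34), Mvd (1.84 ± 0.26), Pmvk (1.79 ± 0.30) and Sqle in Ccr2-/-. Lipa, the lysosomal acid lipase that frees cholesterol from esters, fell by 1.04 ± 0.14 and 0.96 ± 0.13.

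Of the 7 oxysterol and storage genes, 5 were tested in MG. All 5 passed in WT and in Ccr2-/- MG, 4 higher and 1 lower, where 30.9% and 34.9% of all genes did. In reporter MG 1 of 5 passed, Ch25h, where 1.08% of all genes did. Ch25h, which makes 25-hydroxycholesterol, averaged 0.139 CPM in untreated WT MG and 58.5 CPM after LPS, and 0.21 and 80.7 CPM in Ccr2-/-. Nceh1, a cholesteryl ester hydrolase, rose by 1.53 ± 0.23 and 1.54 ± 0.16, Plin2, a lipid droplet coat protein, by 1.72 ± 0.29 and 1.66 ± 0.30, and Cyp27a1, a sterol 27-hydroxylase, fell (-1.62 ± 0.55 and -2.56 ± 0.29). Among LXR axis genes the fatty acid enzymes Elovl5 (1.65 ± 0.21 and 1.90 ± 0.21) and Fasn (2.17 ± 0.30 and 2.18 ± 0.29) rose and Lpcat3 fell (-0.60 ± 0.14 and -0.52 ± 0.12), with 3 higher and 4 lower of 17 in WT and 4 higher and 4 lower of 17 in Ccr2-/-.

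In sdCAMs Nr1h3 and the LXR target Abca1 moved in opposite directions with LPS. Nr1h3 went from 1.06, 4.72 and 2.64 CPM in untreated Ccr2-/- sdCAMs to 16.5, 19.7 and 43.6 CPM after vehicle and LPS, a rise of 3.23 ± 0.65 (adjusted p = 0.00232). Abca1 went from 450, 406 and 459 CPM to 174, 118 and 135 CPM, a change of -1.62 ± 0.23 (adjusted p = 0.000198). For Nr1h3 and Abca1 the groups lay apart without overlap, as for 5754 of all 11941 genes tested, and the calls held without any 1 library. Nr1h2, which encodes the other LXR, averaged 79.9 CPM untreated and 74.9 CPM after LPS there (-0.09 ± 0.20, not passing). Rxra, a retinoid X receptor gene, fell (-1.17 ± 0.24, adjusted p = 0.00294).

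Abcg1 and Mylip also fell in Ccr2-/- sdCAMs. Abcg1 went from 26.7, 24.0 and 26.5 to 14.0, 8.28 and 16.2 CPM (-1.0 ± 0.33, adjusted p = 0.0371), a call lost in every fit that left out 1 library except that without LPS mouse 4 (adjusted p up to 0.136). Mylip went from 46.9, 41.9 and 98.9 to 23.3, 18.6 and 24.9 CPM (-1.49 ± 0.40, adjusted p = 0.0141), with an adjusted p of up to 0.0947 without untreated mouse 5 or LPS mouse 2. Srebf1 (-0.42 ± 0.22), Srebf2 (0.12 ± 0.18), Hmgcs1 (-0.05 ± 0.23) and Sqle (0.44 ± 0.19) did not pass. In all, 4 of the 8 genes passed in Ccr2-/- sdCAMs, where 28.8% of all genes did.

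In WT sdCAMs 3 of the 8 genes passed, where 6.32% of all genes did, each close to the threshold. Nr1h3 had 0, 6 and 0 counts in the untreated libraries (0, 2.39 and 0 CPM) and 25.7, 36.5 and 5.54 CPM after vehicle and LPS, with a fitted rise of 4.85 ± 1.29 (adjusted p = 0.0491) whose size depends on those few untreated counts. Abca1 went from 472, 604 and 766 to 149, 45.4 and 140 CPM (-2.25 ± 0.60, adjusted p = 0.0489). Mylip went from 108, 169 and 217 to 50.4, 54.2 and 47.2 CPM (-1.50 ± 0.40, adjusted p = 0.0494). None of these groups overlapped, as for 3789 of all 10504 genes tested. Abca1 and Mylip lost their calls in all 6 fits that left out 1 library (adjusted p up to 0.134 and 0.163). Nr1h3 lost its call in 5 of 6, all but that without untreated mouse 14 (adjusted p up to 0.14). The other 5 genes ranged from -0.98 ± 0.49 (Srebf2) to 1.09 ± 0.52 (Srebf1) and did not pass.

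Markers of other cells moved with LPS in the sdCAM libraries. The microglial sum was 3273 to 4940 CPM in untreated Ccr2-/- sdCAMs and 883 to 1158 CPM after LPS, and 2999 to 10130 against 176 to 629 CPM in WT. The summed level of 4 neutrophil markers was 0.973 to 2.58 CPM untreated and 59.2 to 89.99 CPM after LPS in Ccr2-/-, and 0 to 79.4 against 129 to 1121 CPM in WT, with Ly6g and Retnlg at 0 in every one of these libraries after LPS. The summed level of 4 monocyte markers was 2.59 to 5.59 CPM untreated and 91.6 to 182 CPM after LPS in Ccr2-/- sdCAMs, and 28.5 to 43.95 against 4.16 to 44.6 CPM in WT, with Ly6c2 and Plac8 at 0 in untreated Ccr2-/- sdCAMs. The 3 choroid plexus markers summed to 650.4, 178.5 and 6.98 CPM in the WT sdCAMs of mice 1, 4 and 6 after LPS, to 1.60 to 123 CPM in untreated WT sdCAMs, and to at most 13.8 CPM in the Ccr2-/- sdCAMs of both groups. The part of these cells in the changes of the 8 genes was not tested.

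**Figure D3:**
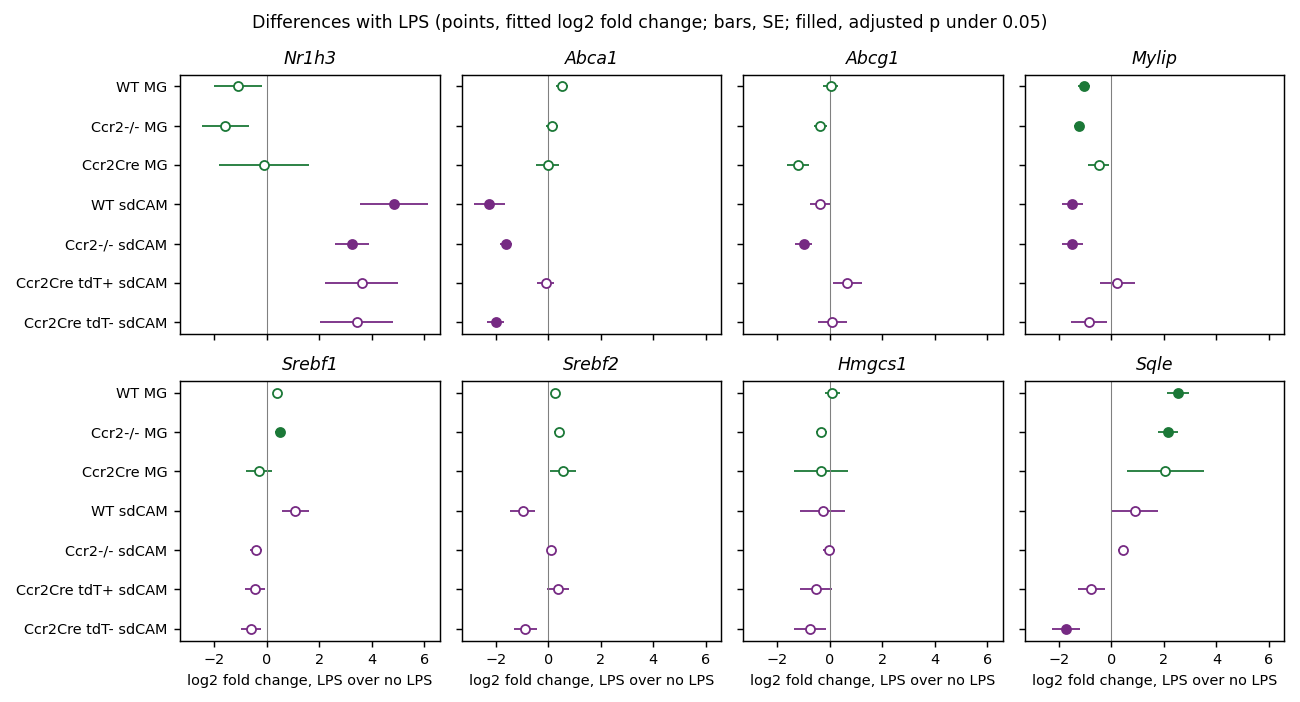
Fitted log2 fold change with LPS (points, SE as bars) of each gene in 7 cell populations, MG in green and sdCAMs in purple, filled where the adjusted p was under 0.05. The WT and Ccr2-/- rows compare vehicle with LPS against untreated, and the Ccr2Cre rows compare LPS with PBS after BLZ945. Nr1h3 lies near or left of 0 in MG and between 3.23 and 4.85 in sdCAMs, Abca1 lies left of 0 in 3 sdCAM populations and at -0.10 in tdT+ cells, and Sqle lies right of 0 in MG.

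Of the 19 LXR axis genes in Ccr2-/- sdCAMs, 8 fell and 2 rose, with a median of -1.0 against -0.05 over all genes. The 4 with the smallest p were Apoe (-1.65 ± 0.12), Pltp (-1.64 ± 0.18), Abca1 and Nr1h3. In WT sdCAMs 3 fell and 1 rose, led by Arl4c, a small GTPase and LXR target (-2.87 ± 0.52). The synthesis enzymes gave 4 higher and 1 lower of 20 in Ccr2-/- sdCAMs, a smaller share than the 28.8% of all genes that passed there. Acat2 (1.52 ± 0.26) and Hsd17b7 (1.58 ± 0.35) were among those that rose, and Dhcr7 was lower (-1.14 ± 0.27). In WT sdCAMs 0 of 19 passed, where 6.32% of all genes did (median 0.78 against -0.08 over all genes).

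Of the oxysterol and storage genes, 3 rose and 1 fell of 6 tested in Ccr2-/- sdCAMs, and 2 rose and 1 fell of 5 tested in WT sdCAMs. Plin2 rose by 3.01 ± 0.20 in Ccr2-/- and 2.75 ± 0.50 in WT sdCAMs, Ch25h rose by 3.73 ± 0.29 and 4.98 ± 1.20, Cyp27a1 fell (-5.23 ± 0.68 and -3.86 ± 0.99), and Nceh1 (-0.94) and Soat1 (0.69) did not pass in WT. Lipa, of the SREBP control and uptake list, fell (-2.65 ± 0.21 and -2.85 ± 0.45), where 2 rose and 2 fell of 10 in Ccr2-/- and 0 rose and 1 fell of 10 in WT sdCAMs.

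Whether the LPS response differed between the cell types was tested as an interaction, the sdCAM response minus the MG response. For Abca1 it was -1.74 ± 0.35 in Ccr2-/- (adjusted p = 0.00359) and -2.85 ± 0.61 in WT mice (adjusted p = 0.0291). The gene fell in sdCAMs, while in MG it differed by 0.15 ± 0.23 and 0.53 ± 0.22, upward in both genotypes but without passing. For Nr1h3 the interaction was 4.84 ± 0.98 in Ccr2-/- (adjusted p = 0.00356) and 5.91 ± 1.61 in WT (adjusted p = 0.0768). For Sqle it was -1.68 ± 0.40 in Ccr2-/- (adjusted p = 0.0118), the gene rising from a low level in MG and differing by 0.44 ± 0.19 in sdCAMs, and -1.71 ± 1.03 in WT, not passing.

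Srebf1 gave an interaction of -0.89 ± 0.27 in Ccr2-/- mice at the threshold (adjusted p = 0.04999), lost in 10 of the 12 fits that left out 1 library, all but those without the MG of LPS mouse 2 or the sdCAMs of untreated mouse 1. The WT interaction for Abca1 was lost in 7 of 12 such fits, those without any 1 of the 6 MG libraries or without the sdCAMs of untreated mouse 14 (adjusted p up to 0.105). In all, 4 of the 8 genes passed in Ccr2-/- mice, where 8.14% of all genes did, and 1 of 8 in WT mice, where 1.32% did. Another scaling moved the median WT interaction of all genes by 0.157, and the signs of these values stayed as given.

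**Figure D4:**
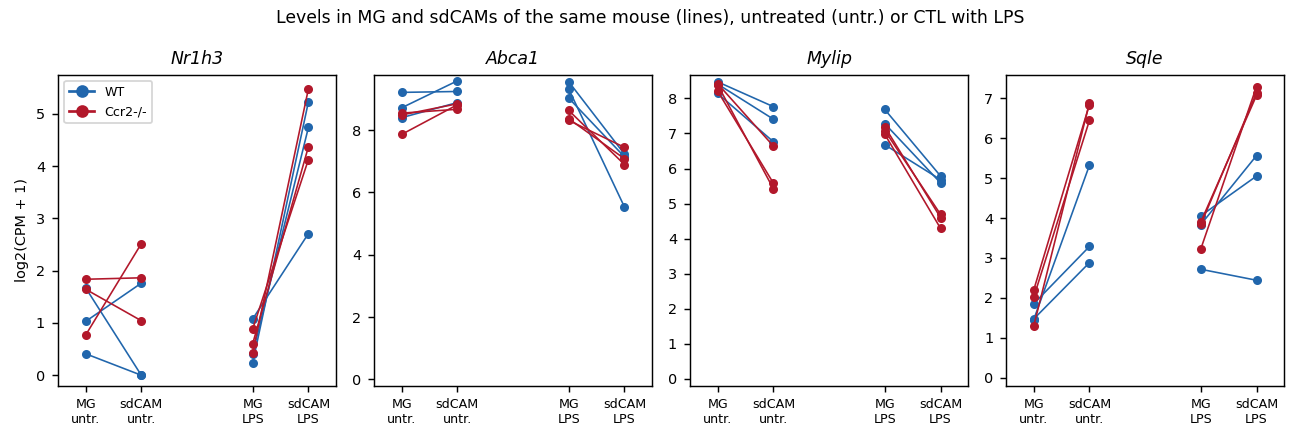
Levels of Nr1h3, Abca1, Mylip and Sqle as log2(CPM + 1) in MG and sdCAMs joined by a line for each mouse, WT in blue and Ccr2-/- in red, untreated on the left of each panel and after vehicle and LPS on the right. For Nr1h3 all 6 lines after LPS rise from MG to sdCAMs, for Abca1 all 6 lines after LPS fall, and for Sqle the line of WT mouse 4 after LPS is the only one that falls.

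In the reporter mice, sdCAMs of both labels were compared after repopulation. After PBS, 0 of the 8 genes differed between tdT+ and tdT- sdCAMs in edgeR (0 at an unadjusted p under 0.05, 0 in DESeq2), where 0.0236% of all genes did, with differences from -0.55 ± 0.41 (Srebf2) to 0.80 ± 1.29 (Nr1h3). Sqle was at 78.7, 65.6 and 77.2 CPM in tdT+ and 82.1, 51.1 and 89.0 CPM in tdT- sdCAMs.

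After LPS, Abca1 was at 199, 264 and 261 CPM in the libraries labelled tdT+ and at 40.6, 68.5 and 103 CPM in those labelled tdT- of mice 1, 5 and 7. These groups did not overlap, as for 3279 of all 12708 genes tested. The difference was 1.73 ± 0.34 (adjusted p = 0.00364), and Abca1 was the only 1 of the 8 genes to pass, where 10.8% of all genes did. With the columns of the libraries labelled tdT- of mouse 1 and tdT+ of mouse 7 exchanged it was 0.20 (adjusted p = 0.996). With both left out it was 1.40 (adjusted p = 0.0351), where mice 1 and 5 remain for tdT+. Fitted on the compared libraries alone it was 1.61 (adjusted p = 0.0537). The tdT+ library of mouse 5, at 264 CPM of Abca1, held the microglial markers, and reporter MG after LPS had 133, 238 and 300 CPM. The part of microglia in the Abca1 difference was not tested. Sqle was at 56.3, 9.72 and 60.6 CPM in tdT+ and at 20.8, 22.1 and 20.3 CPM in tdT- libraries (0.96 ± 0.52, not passing). The low tdT+ value was that of mouse 5, whose library held the microglial markers, and without it the Sqle difference was 1.48 (adjusted p = 0.0237). With the 2 columns exchanged the Sqle difference was -0.26 (adjusted p = 0.995), and with both left out 0.59 (adjusted p = 0.665). Neutrophil markers summed to 268 to 1422 CPM in the tdT- and 10.8 to 56.3 CPM in the tdT+ libraries after LPS. Of these markers, Ly6g and Retnlg were at 0 in all of these libraries. The part of neutrophils in the Abca1 difference was not tested.

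Set against PBS, Abca1 in tdT- sdCAMs went from 258, 322 and 320 CPM to the values above (-2.01 ± 0.34, adjusted p = 0.000483), whereas in tdT+ sdCAMs it went from 315, 244 and 237 CPM to values in the same range (-0.10 ± 0.33). With the columns exchanged the tdT+ value was -0.62 (adjusted p = 0.548), and with both left out -0.17 (adjusted p = 0.792). The tdT+ values after LPS include that of mouse 5, whose library held the microglial markers. Sqle in tdT- sdCAMs fell from 82.1, 51.1 and 89.0 CPM (-1.74 ± 0.53, adjusted p = 0.0232). The Abca1 change in tdT- cells was -1.0 with the columns exchanged (adjusted p = 0.279) and -1.75 with both libraries left out (adjusted p = 0.00281). The Sqle change was -1.05 (adjusted p = 0.256) and -1.74 (adjusted p = 0.0592), and it was also lost without any 1 of tdT- mice 1, 7, 174 or 177 (adjusted p up to 0.0688). Between PBS and LPS, microglial markers in tdT- sdCAMs went from 3933 to 4075 CPM down to 152 to 349.8 CPM, monocyte markers from 147 to 315.5 CPM down to 17.03 to 79.8 CPM, and neutrophil markers from 0 in all 3 libraries up to 268 to 1422 CPM. Of the neutrophil markers, Ly6g and Retnlg were at 0 both after PBS and after LPS. The part of these other cells in the changes was not tested. Whether the LPS response itself differed between tdT+ and tdT- cells was not tested.

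The reporter sdCAMs gave Nr1h3 fold changes of a similar size that did not pass in edgeR with the low-count filter. It went from 0.11, 4.45 and 1.82 CPM to 49.2, 3.24 and 23.8 CPM in tdT+ sdCAMs (3.61 ± 1.39, adjusted p = 0.0995) and from 0, 1.20 and 2.44 CPM to 8.99, 18.6 and 9.73 CPM in tdT- sdCAMs (3.42 ± 1.39, adjusted p = 0.0802). The lowest tdT+ value after LPS was again mouse 5, and only the tdT- groups did not overlap, as for 5876 of all 12708 genes tested. With the columns exchanged the Nr1h3 values were 3.30 in tdT+ and 3.88 in tdT- sdCAMs (adjusted p = 0.166 and 0.101), and with both libraries left out 3.65 and 3.59 (adjusted p = 0.177 and 0.126). In DESeq2 Nr1h3 passed in both, at 3.68 in tdT+ (adjusted p = 0.01825) and 3.63 in tdT- sdCAMs (adjusted p = 0.01399). It also passed in both in edgeR with no filter on low counts. In tdT+ sdCAMs 0 of 8 genes passed in edgeR (1, Nr1h3, at an unadjusted p under 0.05 and in DESeq2), where 13.6% of all genes did. In tdT- sdCAMs 2 of 8 passed in edgeR (3 in DESeq2), where 27.1% of all genes did.

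Among the LXR axis genes of reporter sdCAMs, Pltp fell by 3.50 ± 0.51 in tdT+ and by 4.06 ± 0.52 in tdT- cells and Apoe by 3.20 ± 0.54 and 1.91 ± 0.51, with 2 higher and 3 lower of 19 in tdT+ and 1 higher and 7 lower in tdT-. Cyp27a1 fell in both (-4.15 ± 0.59 and -5.68 ± 0.65). The tdT+ values after LPS include those of mouse 5, whose library held the microglial markers. After LPS, Apoe averaged 312 CPM in reporter MG and 4692 CPM in tdT+ sdCAMs. The part of microglia in these tdT+ changes was not tested. Of 20 synthesis enzymes 1 fell in tdT+ cells, Cyp51 (-1.44 ± 0.34), and 3 fell in tdT- cells, Cyp51 (-1.70 ± 0.34), Msmo1 (-1.53 ± 0.36) and Sqle, with none higher in either. These are smaller shares than the 13.6% and 27.1% of all genes that passed there. With the columns exchanged, 3 LXR axis genes and 1 enzyme passed in tdT+ and 4 and 2 in tdT- sdCAMs, and with both libraries left out 3 and 1 in tdT+ and 7 and 2 in tdT-. The single genes of these lists are given as labelled only.

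Repopulation after LPS was compared as BLZ945 with LPS against vehicle with LPS, to ask whether cells that refilled the niche differed from those never depleted. None of the 8 genes passed in edgeR or DESeq2 in any of the 4 populations. In WT MG 0 of 8 passed (1, Abca1, at an unadjusted p under 0.05), where 0.0763% of all genes did, in Ccr2-/- MG 0 of 8 (0 unadjusted), where 0.0173% did, in WT sdCAMs 0 of 8 (0 unadjusted), where 0% did, and in Ccr2-/- sdCAMs 0 of 8 (1, Srebf2, unadjusted), where 0% did. Abca1 in WT sdCAMs had 340, 282 and 146 CPM after BLZ945 and 149, 45.4 and 140 CPM after vehicle (1.06 ± 0.58), and Srebf2 there had 144, 84.0 and 41.3 against 36.1, 48.7 and 39.1 CPM (1.00 ± 0.49). Both pairs of groups overlapped through mouse 12, whose library carries the IEG note like those after vehicle, while mice 8 and 11 do not. Across MG the differences of the 8 genes lay between -0.52 ± 0.22 (Abca1, WT) and 0.96 ± 0.92 (Nr1h3, WT).

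Genotypes were compared as Ccr2-/- minus WT. In untreated MG 0 of the 8 genes passed in edgeR (1, Hmgcs1, at an unadjusted p under 0.05, and 0 in DESeq2), where 17.5% of all genes did. In untreated sdCAMs 4 of 8 passed, where 9.6% of all genes did. Sqle was at 86.1, 114 and 117 CPM in Ccr2-/- and 8.76, 6.37 and 38.9 CPM in WT sdCAMs (2.59 ± 0.64, adjusted p = 0.0183). Srebf1 was also higher in Ccr2-/-, at 45.8, 56.8 and 48.2 against 20.9, 19.1 and 15.6 CPM (1.41 ± 0.39, adjusted p = 0.0288). Abcg1 (-1.68 ± 0.34, adjusted p = 0.00615) and Mylip (-1.40 ± 0.40, adjusted p = 0.0343) were lower in Ccr2-/-, with the values given above.

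None of these groups overlapped, as for 4231 of all 13258 genes tested. The WT libraries were shallower than the Ccr2-/- ones (1929070 to 3049028 against 8124128 to 8929948 counts). Depth and genotype cannot be told apart for any of these mice, mouse 15 included, nor can the IEG note for mice 9 and 14. The authors describe a batch correction of their WT and Ccr2-/- data, and none was applied here. Without WT mouse 15, which has the most microglial markers and no IEG note, the differences were -1.73 for Abcg1 (adjusted p = 0.00614), -1.21 for Mylip (adjusted p = 0.0756), 1.27 for Srebf1 (adjusted p = 0.0637) and 3.74 for Sqle (adjusted p = 0.00209). Mylip lost the call in 5 of 6 fits that left out 1 library, all but that without Ccr2-/- mouse 5, Srebf1 in 5 of 6, all but that without WT mouse 9, and Sqle in 4 of 6, those without WT mouse 9 or 14 or Ccr2-/- mouse 3 or 5 (adjusted p up to 0.157, 0.11 and 0.075). Abcg1 kept it in all 6 and lost it with no filter on low counts (adjusted p = 0.0636). Of 20 synthesis enzymes 6 were higher in Ccr2-/- sdCAMs and 0 lower, with a median of 1.29 against -0.01 over all genes, among them Msmo1 (2.62 ± 0.37), Hsd17b7 (4.95 ± 0.80) and Sqle.

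Interactions of genotype with LPS and with repopulation passed for 0 of the 8 genes in MG and in sdCAMs, as for 0% of all genes in each of these 4 tests by edgeR, and for 0 of 8 by DESeq2. At an unadjusted p under 0.05 there were 0 of 8 in MG in both tests, 2 of 8 in sdCAMs with LPS (Srebf1 -1.30 ± 0.54 and Srebf2 1.30 ± 0.53) and 2 of 8 in sdCAMs with repopulation (Abca1 -1.47 ± 0.59 and Srebf2 -1.40 ± 0.53). Without WT mouse 12, the repopulated WT sdCAM library with the IEG note, the last pair passed (Abca1 -1.90, adjusted p = 0.0324, and Srebf2 -1.90, adjusted p = 0.00884).

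Over the 18 group means of log2 CPM, which share mice, cell types and treatments, Abcg1 and Mylip ran together (Pearson r = 0.92), as did Srebf2 and Sqle (r = 0.89), and Abcg1 ran opposite to Sqle (r = -0.90). Among 10493 genes, those like Sqle included P2rx4 (r = 0.936) and Aplp2 (r = 0.933), and those like Srebf2 included Erbb3 (r = 0.931) and Dnase1l1 (r = 0.918). Nr1h3 was most like Prss22 (r = 0.951), Lipg (r = 0.942), an endothelial lipase, and the chemokine gene Cxcl1 (r = 0.937). The genes most like the others were Camk1d for Abca1 (r = 0.908), Rhob for Abcg1 (r = 0.944), Lhfpl2 for Mylip (r = 0.968), Vps26a for Hmgcs1 (r = 0.941) and Ttll12 for Srebf1 (r = 0.783), whose closest match was the weakest of the 8.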

How the data were processed

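Bulk RNA-seq was done on sorted MG and sdCAMs of 24 mice, with 50-cycle single reads from libraries made with Nextera XT. The authors deposited raw read counts per gene symbol, as 1 table each for WT, Ccr2-/- and reporter mice, 54 libraries in all. The submitters' processing notes name bcl2fastq 2.20, STAR 2.7.11a, featureCounts 2.0.8 and DESeq2 1.46.0, and name more than 1 mouse genome build, so the build behind the counts is unsettled here. The strand setting of the counting is not given in the sources used here, so overlapping antisense genes cannot be told apart.

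The 3 tables were joined on 33280 symbols, 6948 of them with no count. Genes were filtered with filterByExpr, scaled by TMM and tested with the quasi-likelihood F test of edgeR 4.0.16 (limma 3.58.1, R 4.3.3), with Benjamini-Hochberg adjustment over all genes tested and a threshold of 0.05. Fitted values used a prior count of 2. Groups came from the cell type, genotype and treatment labels, and tdT status from the titles. MG and sdCAMs share mice. The deviations of same-mouse libraries from their group means correlated at -0.045 to 0.203 (36 pairs, median 0.056), and a fit with the mouse as a replicate block was an alternative. The others were DESeq2 1.42.0, RLE size factors, no filter or a minimum mean of 10 counts, a log2 fold change over 1, only the libraries compared, the IEG note as a covariate, both columns in doubt exchanged or left out, and each library left out in turn. The scripts were tested on simulated data. Libraries were compared in pairs within each group only (54 pairs), and no such pair agreed within sampling noise.

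The 8 genes and the pathway and marker lists were chosen with earlier results of these data known. The 8 were all named, and up to 4 genes with the smallest p were named per list and comparison, with others of a list chosen after their values were seen. Lengths are exon unions on GRCm38, and promoter windows came from RefSeq on GRCm38.p6. Some genes of the lists were counted but are not reported here by name.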

Additional observations from a re-analysis of the deposited data

Results flagged for a closer look

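The LPS response differed between sdCAMs and MG by a test of the difference itself (edgeR, interaction term, n = 3 mice a group) for 5 results. In Ccr2-/- mice it was higher in sdCAMs for Nr1h3, by 4.84 ± 0.98 on the log2 scale (adjusted p = 0.003556), and lower for Abca1 (-1.74 ± 0.35, adjusted p = 0.003595), Sqle (-1.68 ± 0.40, adjusted p = 0.01175) and Srebf1 (-0.89 ± 0.27, adjusted p = 0.04999). In WT mice it was lower in sdCAMs for Abca1 (-2.85 ± 0.61, adjusted p = 0.02911). Leaving out 1 library took the Srebf1 call away in 10 of 12 fits and the WT Abca1 call in 7 of 12, and the Srebf1 call was also lost with the mouse as a replicate block. The other 3 held in all 12 such fits.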

How the results depend on the processing

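Of 42 calls on the 8 genes, 20 held under every alternative, and none of 2868 recomputed values reversed a called direction. Of 359 recomputed counts of passing genes, 318 stayed within 1.5 times the reported count. The cause of the other moves was not tested. The WT interaction of cell type and LPS gave 2 passing genes with DESeq2 and 2 with no filter (reported 1), untreated MG between genotypes 1 with no filter and 2 with only the libraries compared (0), and untreated sdCAMs between genotypes 2 with only the libraries compared (4). LPS in tdT- sdCAMs gave 0 with 2 columns exchanged and 1 with both left out (2), and in tdT+ sdCAMs 1 with DESeq2 and 1 with no filter (0). LPS in WT sdCAMs gave 1 at a minimum mean of 10 counts (3), sdCAMs against MG after LPS in WT 0 with the IEG note as a covariate (3), and tdT+ against tdT- after LPS 0 with the columns exchanged and 0 with only the libraries compared (1). Leaving out 1 library gave 0 to 1 for the WT interaction, 0 to 2 for genotype by repopulation in sdCAMs, 1 to 2 for genotype in untreated sdCAMs, 2 to 4 for LPS in Ccr2-/- sdCAMs, 1 to 2 in tdT- sdCAMs, 0 to 1 in WT sdCAMs, 0 to 2 for untreated WT sdCAMs against MG, and 1 to 2 for tdT+ against tdT- after LPS. With the mouse as a replicate block, untreated WT sdCAMs against MG gave 2 (3, Mylip lost), the Ccr2-/- interaction 3 (4, Srebf1 lost) and the other 6 paired comparisons the reported count. RLE size factors moved the median of all genes by 0.251 for sdCAMs against MG after LPS in WT, 0.194 for LPS in tdT- sdCAMs, -0.176 for genotype by LPS in sdCAMs, 0.157 for the WT interaction and -0.128 for tdT+ against tdT- after LPS. Low totals limit the WT sdCAM values, where some libraries hold 0 to 6 counts of Nr1h3 and 4 counts of Sqle.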
